A study of Mus musculus with 24 samples.

Results

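The lung cells described here are MacB2 cells, sorted as CD11b+, Ly6G-, CD64 intermediate and CD11c-, from mice that had carried a lung tumour for 2 weeks (MacB2-2wk, 3 libraries) and from uninjected mice (MacB2-N, 3 libraries). These 6 RNA-seq libraries were chosen by their labels alone from the 24 libraries of the series, and every difference below is MacB2-2wk minus MacB2-N on log2(FPKM + 1) unless another pair is named. All mice were C57BL/6 males of 10 to 16 weeks with no engineered allele named in the labels. In the tumour group, 100000 LLC-Luc cells, a Lewis lung carcinoma line that carries luciferase, were placed in PBS with Matrigel into the left lung lobe. Uninjected mice received neither cells nor Matrigel. The left lobe with its tumour was taken from tumour mice, whereas all lobes were taken from uninjected mice, so that tumour, injection and lobe cannot be told apart. Tissue from 3 to 5 mice was pooled for each library. The series' design text states 3 independent experiments for each population, and the labels do not tie a library to an experiment. In the MacB groups, each replicate number was sequenced in a lane of its own (replicate 1 in lane 2, replicate 2 in lane 3, replicate 3 in lane 7). The LLC-Luc line is a single transplanted line in this strain, and the sort gate keeps a population that can hold more than 1 kind of monocyte or macrophage. The other groups used served only for comparison: MacB2-3wk (MacB2 after 3 weeks of tumour, 3 libraries), MacB3-2wk (CD64 high and CD11c+ cells of 2-week tumour lungs by the sample titles and tissue labels, 3 libraries; the design text lists them under 2-week mice but prints the name MacB3-3wk), and the SiglecF+, CD11c+ MacA cells with and without a 2-week tumour (3 libraries each).

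As background, blood monocytes enter the lung continuously and differ in kind. In the mouse, classical monocytes carry high Ly6C and the chemokine receptor CCR2, whereas nonclassical monocytes carry little Ly6C, depend on the nuclear receptor NR4A1 and patrol vessel walls through CX3CR1. In a growing tumour, recruited monocytes can turn into macrophages, which take up debris, degrade matrix, release chemokines and metabolise arginine through arginase or nitric oxide synthase.

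The transcripts of the sorted surface proteins fitted the gate in both groups. Itgam, which encodes CD11b, had 258, 275 and 289 FPKM in MacB2-2wk, against 303, 342 and 197 FPKM in MacB2-N. Fcgr1, which encodes CD64, had 91.1, 87.8 and 118 FPKM in MacB2-2wk, against 76.0, 86.9 and 56.6 FPKM in MacB2-N (log2 difference 0.44 ± 0.16 SE, adjusted p = 0.202). Itgax, which encodes CD11c, reached at most 12.96 FPKM in MacB2-2wk and at most 8.81 FPKM in MacB2-N, and Ly6g was listed at 0 in all 6 libraries. Ccr2 had 226, 222 and 220.4 FPKM in MacB2-2wk, against 173, 315 and 198 FPKM in MacB2-N. FPKM values sum to no fixed total here: the 6 libraries summed to between 2772701 and 4790128 FPKM, of which 15.5 to 22.7% belonged to protein-coding genes. The steps between the lowest values put the depth of MacB2-2wk replicates 1, 2 and 3 at 0.678, 0.727 and 0.521 of that of MacA-N replicate 1, and the depth of MacB2-N replicates 1, 2 and 3 at 0.582, 0.616 and 0.824. The absolute depth is unknown. In bulk libraries such as these, fewer cells of a type and less RNA per cell cannot be told apart.

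After 2 weeks of tumour most of the genes called were higher. Of 17156 genes tested, 284 were higher in MacB2-2wk than in MacB2-N (1.66% of genes tested) and 39 were lower (0.227%), which is 1.88% in either direction, at an adjusted p under 0.05 and a fold of at least 2. Of the genes that rose 257 were protein coding, and of those that fell 24 were. The median log2 difference over all genes tested was 0.03. Quantile normalization gave 209 higher and 71 lower genes, so the share of gains among the calls, 87.9%, became 74.6% under that scaling. With the 6 libraries alone, which changes both the estimate of the spread and the genes tested (14895), 34 genes were higher and 2 lower. Without MacB2-2wk replicate 3, which had the lowest relative depth of the 6, 131 genes were higher and 10 lower. Of the 284 genes that rose, 106 were called without each of the 6 libraries in turn, and of the 39 that fell, 4 were.

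The largest rise among the genes that met the naming rule was that of Arg1, arginase 1, which hydrolyses arginine (chromosome 10, 24915221 to 24927484, GRCm38). Arg1 had 93.2, 46.4 and 140.4 FPKM in MacB2-2wk, against 0.807, 0.763 and 0.574 FPKM in MacB2-N, a log2 difference of 5.65 ± 0.44 SE (adjusted p = 1.58e-06). The lowest tumour library thus stood far above the highest naive one. Differences on this scale understate the fold of genes that are low in one group, because 1 FPKM is added to each value. After Arg1 came Ctsk, AA467197, Mmp9, Spp1, Hist1h2ah, Hist1h3g, Mmp12, Cxcl3, Gpnmb, Sox9, Cxcl9, Hist1h3c, Ptn and Ube2c. Of these 15 genes, 14 were called without each of the 6 libraries in turn, the exception being Sox9, and 10 were called with the 6 libraries alone.

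**Figure D1:**
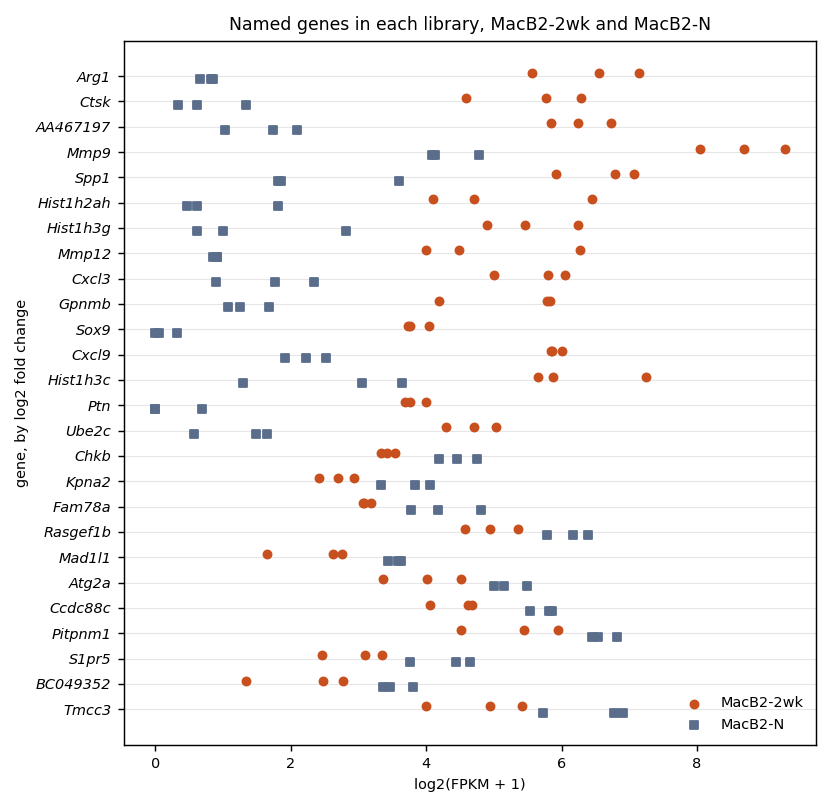
Levels on a log2(FPKM + 1) axis of the 15 highest and 11 lowest genes that met the naming rule, with 3 MacB2-2wk libraries (circles) and 3 MacB2-N libraries (squares) for each gene. In each of the 26 genes the MacB2-2wk circles and the MacB2-N squares do not overlap, and the gaps of Arg1 and Mmp9 are several times wider than those of the genes that fell.

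Chemokines, the secreted proteins that steer leukocyte migration, formed the list with the most frequent calls. Of 11 CXC chemokine genes tested, 6 rose (Cxcl9, Cxcl10, Cxcl3, Cxcl1, Cxcl16 and Cxcl11) and none fell, with a median log2 difference of 1.45. Under quantile normalization Cxcl13, the B-cell attractant, was called lower. The first 2, Cxcl9 and Cxcl10, encode ligands of CXCR3, a receptor of activated T and NK cells, and lie close together on chromosome 5. Their upstream sequences, 250 bases that end at the RefSeq start (GRCm38.p6), are shown because both genes moved together and both are known interferon targets. Capitals mark matches, on either strand, to the core of the interferon-stimulated response element (GAAA, any 2 bases, GAAA) and to the kappaB motif (GGGANTTCC).
Cxcl9 (chr5:92328080-92328329, minus strand): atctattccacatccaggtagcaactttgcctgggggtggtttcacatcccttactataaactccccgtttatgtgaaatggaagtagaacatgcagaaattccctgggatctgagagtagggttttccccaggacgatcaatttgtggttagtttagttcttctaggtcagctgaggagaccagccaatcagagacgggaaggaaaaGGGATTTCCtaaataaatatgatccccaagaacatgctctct
Cxcl10 (chr5:92348890-92349139, minus strand): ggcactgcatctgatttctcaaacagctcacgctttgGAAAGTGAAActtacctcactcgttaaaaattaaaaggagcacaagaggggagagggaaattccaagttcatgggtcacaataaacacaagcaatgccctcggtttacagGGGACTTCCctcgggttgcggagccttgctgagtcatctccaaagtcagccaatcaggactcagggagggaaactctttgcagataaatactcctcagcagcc
The kappaB match begins 42 bases before the start in Cxcl9 and 103 bases before it in Cxcl10, and the response element core begins 213 bases before the start in Cxcl10. Of 32851 mouse promoter windows of that length, 1.43% hold the kappaB letters and 2.98% hold the response element core. These matches are descriptions of the letters and no binding was measured.

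Cxcl9 (chromosome 5, 92321347 to 92328079) had 56.7, 63.5 and 56.8 FPKM in MacB2-2wk, against 4.72, 3.66 and 2.75 FPKM in MacB2-N. That is a log2 difference of 3.69 ± 0.31 SE (adjusted p = 2.32e-06) and the tumour libraries lay close to each other. Cxcl10 had the highest level of the 6 genes, with 953, 891 and 1471 FPKM in MacB2-2wk, against 95.2, 96.1 and 112 FPKM in MacB2-N (log2 difference 3.41 ± 0.32 SE, adjusted p = 8.65e-06). Cxcl11, the third CXCR3 ligand, was low, with 2.24, 2.00 and 2.65 FPKM in MacB2-2wk, against 0, 0.469 and 0.176 FPKM in MacB2-N (adjusted p = 0.0135). Its call ended without MacB2-2wk replicate 3 (adjusted p = 0.0697) and without MacB2-N replicate 1 (adjusted p = 0.0632). The neutrophil attractants Cxcl3 and Cxcl1 rose as well. Cxcl3 had 65.6, 30.9 and 54.9 FPKM in MacB2-2wk, against 0.852, 2.42 and 4.09 FPKM in MacB2-N (log2 difference 3.95 ± 0.55 SE, adjusted p = 0.000512). Cxcl1 had 40.6, 26.96 and 14.7 FPKM in MacB2-2wk, against 3.21, 3.25 and 5.86 FPKM in MacB2-N (log2 difference 2.41 ± 0.38 SE, adjusted p = 0.00159). Neither gene overlapped between the groups, although Cxcl1 spread widely among the tumour libraries. Cxcl16, a membrane-bound ligand of CXCR6, differed least among the 6, with 28.7, 30.9 and 31.04 FPKM in MacB2-2wk, against 10.9, 10.5 and 12.96 FPKM in MacB2-N (log2 difference 1.33 ± 0.22 SE, adjusted p = 0.00188).

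Of 12 CC chemokine genes tested, 2 rose (Ccl5 and Ccl7), with a median log2 difference of 1.79. Ccl5, a chemokine that attracts T cells and monocytes, had 112, 102 and 122 FPKM in MacB2-2wk, against 34.8, 11.5 and 23.6 FPKM in MacB2-N (log2 difference 2.34 ± 0.32 SE, adjusted p = 0.000486). Ccl7, a ligand of CCR2, had 9.41, 8.82 and 15.5 FPKM in MacB2-2wk, against 2.88, 2.72 and 0 FPKM in MacB2-N (log2 difference 2.29 ± 0.59 SE, adjusted p = 0.0474). Its call rested on each of the 6 libraries, with an adjusted p of 0.0539 to 0.187 when 1 was left out. Of the 12 chemokine and chemoattractant receptor genes tested, Ccr1, a receptor of Ccl5, was among those that rose. Ccr1 had 101, 77.6 and 107 FPKM in MacB2-2wk, against 24.8, 32.9 and 19.7 FPKM in MacB2-N (log2 difference 1.86 ± 0.23 SE, adjusted p = 0.000186). For Ccl5 and for Ccr1 all tumour libraries lay above all naive ones. T and NK cells also express Ccl5. Of 18 T cell genes tested only Il7r rose, and of 8 NK cell genes only Nkg7, where 1.66% of all genes tested rose. The other genes of these 2 lists were not called. The part of T and NK cells in the Ccl5 level was not tested.

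Genes known to respond to interferon gamma, the activating cytokine of T and NK cells, were higher in part. Of 27 tested, 7 rose and none fell, with a median log2 difference of 0.92. Besides the 3 CXCR3 ligands these were Socs1, Gbp5, Gbp2 and Nos2. In 17 of the 27 genes, all tumour libraries lay above all naive ones (9.84% of all genes tested did). Socs1, an inhibitor of JAK kinases, had 25.4, 30.4 and 29.01 FPKM in MacB2-2wk, against 4.89, 7.65 and 6.71 FPKM in MacB2-N (log2 difference 2.00 ± 0.23 SE, adjusted p = 0.000124). The guanylate-binding proteins Gbp5 and Gbp2, which attack intracellular pathogens, averaged 21.9 ± 2.09 and 57.4 ± 15.3 FPKM in MacB2-2wk, and 5.41 ± 0.573 and 20.7 ± 2.87 FPKM in MacB2-N (SD, n = 3 each). Among genes known to respond to type I interferon, 2 of 37 tested rose, Ifit1 and Ifit2, and the median log2 difference was 0.25. Ifit1 had 28.6, 25.99 and 44.7 FPKM in MacB2-2wk, against 10.2, 9.55 and 13.5 FPKM in MacB2-N (adjusted p = 0.0354). Its call was kept only without MacB2-2wk replicate 2 among the 6 leave-one-out fits (adjusted p of 0.0504 to 0.175 in the other 5), and with the replicate block its adjusted p was 0.0553. Ifit2 lost its call in each of the 6 leave-one-out fits (adjusted p of 0.0637 to 0.163) and with the replicate block (adjusted p = 0.0661).

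Both branches of arginine use had members that rose. Of 21 genes of arginine metabolism and the interleukin-4 response, 4 were called, namely Arg1, Arg2, Nos2 and Slc7a2, of which Arg1 is also an interleukin-4 target in mouse macrophages, and none of the other genes was. Arg2, the mitochondrial arginase, had 15.9, 16.3 and 14.3 FPKM in MacB2-2wk, against 8.34, 6.05 and 4.67 FPKM in MacB2-N (log2 difference 1.19 ± 0.23 SE, adjusted p = 0.00652). Nos2, the inducible nitric oxide synthase, stayed low at 3.39, 2.21 and 3.37 FPKM in MacB2-2wk, against 0.0856, 0.0404 and 0.669 FPKM in MacB2-N (log2 difference 1.68 ± 0.29 SE, adjusted p = 0.00289). Slc7a2, a cationic amino acid transporter, had 2.34, 2.81 and 2.31 FPKM in MacB2-2wk, against 0.295, 0.411 and 0.801 FPKM in MacB2-N (adjusted p = 0.0461). That call was lost when any 1 library was left out (adjusted p of 0.0558 to 0.14) and with the replicate block (adjusted p = 0.0746). On the FPKM scale, which is per length, Arg1 stood far above Nos2 in the tumour libraries.

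In the matrix protease list 8 of 16 genes rose, and in 10 of the 16 all tumour libraries lay above all naive ones (9.84% of all genes tested did). The 8 genes were Mmp14, Mmp12, Mmp25, Plau, Timp1, Mmp9, Mmp13 and Mmp19, the last 2 named after their values were seen. The median log2 difference of the list was 0.88. Matrix metalloproteinases cut collagens, elastin and other matrix proteins, and many of their promoters are known to bind AP-1, the dimer of Fos and Jun proteins. The upstream sequences of Mmp12, the macrophage elastase, and Mmp13, a collagenase, are shown because these neighbours on chromosome 9 moved together. They are 250 bases that end at a RefSeq start (GRCm38.p6), for Mmp12 the second of 2 starts in the table. Capitals mark the AP-1 motif (TGANTCA, either strand).
Mmp12 (chr9:7347124-7347373, plus strand): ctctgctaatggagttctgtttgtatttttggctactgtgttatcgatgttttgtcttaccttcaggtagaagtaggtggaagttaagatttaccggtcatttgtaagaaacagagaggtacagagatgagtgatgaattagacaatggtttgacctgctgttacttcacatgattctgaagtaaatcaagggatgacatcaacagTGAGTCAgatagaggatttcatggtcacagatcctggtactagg
Mmp13 (chr9:7272264-7272513, plus strand): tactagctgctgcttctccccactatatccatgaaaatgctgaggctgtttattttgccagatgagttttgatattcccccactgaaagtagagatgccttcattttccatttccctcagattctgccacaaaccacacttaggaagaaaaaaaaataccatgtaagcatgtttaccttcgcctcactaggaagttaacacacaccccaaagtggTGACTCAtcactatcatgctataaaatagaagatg
The AP-1 match begins 44 bases before the start of Mmp12 and 35 bases before that of Mmp13. Of the 32851 windows 6.75% hold these letters, and the Cxcl10 window shown above holds them too, left in lower case there. The Mmp13 window also holds the response element core, left in lower case here.

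Mmp9, gelatinase B, had the highest level of the protease genes (chromosome 2, 164940780 to 164955850). Mmp9 reached 629.9, 263 and 415 FPKM in MacB2-2wk, against 15.9, 26.6 and 16.5 FPKM in MacB2-N, a log2 difference of 4.35 ± 0.75 SE (adjusted p = 0.00282). Mmp12 had 21.4, 15.0 and 76.0 FPKM in MacB2-2wk, against 0.870, 0.802 and 0.869 FPKM in MacB2-N (log2 difference 4.03 ± 0.52 SE, adjusted p = 0.000301). Replicate 3 was the highest of the tumour libraries for Mmp12, and all 3 lay far above each naive library. Mmp14, a membrane-anchored metalloproteinase that activates others, had 44.3, 24.9 and 55.6 FPKM in MacB2-2wk, against 5.28, 2.36 and 3.55 FPKM in MacB2-N (log2 difference 3.14 ± 0.33 SE, adjusted p = 3.82e-05). Mmp13 stayed near the detection limit, with 1.13, 0.947 and 2.25 FPKM in MacB2-2wk, against 0.0691, 0.196 and 0.0491 FPKM in MacB2-N (adjusted p = 0.0123), and its call ended without MacB2-2wk replicate 3 (adjusted p = 0.0836). Timp1, an inhibitor of these enzymes, had 11.99, 8.15 and 18.7 FPKM in MacB2-2wk, against 0.546, 1.29 and 0 FPKM in MacB2-N (log2 difference 3.12 ± 0.54 SE, adjusted p = 0.00282). Plau, the urokinase that activates plasminogen, had 7.08, 5.66 and 10.1 FPKM in MacB2-2wk, against 0.320, 1.81 and 2.04 FPKM in MacB2-N (adjusted p = 0.00119). Mmp19 had 30.1, 23.4 and 32.1 FPKM in MacB2-2wk, against 9.06, 13.9 and 5.77 FPKM in MacB2-N (adjusted p = 0.0154), and was not called without MacB2-2wk replicate 1 (adjusted p = 0.0511), MacB2-2wk replicate 3 (adjusted p = 0.0796), MacB2-N replicate 1 (adjusted p = 0.0502) or MacB2-N replicate 3 (adjusted p = 0.074). Enzymes and the inhibitor Timp1 were therefore both among the genes that rose.

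Of 30 genes often reported in tumour-associated macrophages, 9 rose and none fell, with a median log2 difference of 0.69. Timd4, an uptake receptor of resident macrophages, was called lower with a pseudocount of 0.1 FPKM, under quantile normalization and with protein-coding sums rescaled. Ctsk, the collagen-degrading cathepsin K, had 77.5, 22.99 and 53.8 FPKM in MacB2-2wk, against 0.536, 0.253 and 1.52 FPKM in MacB2-N (log2 difference 4.79 ± 0.60 SE, adjusted p = 0.000231). Acp5, the tartrate-resistant acid phosphatase that osteoclasts share with cathepsin K (named after its values were seen), had 215, 54.3 and 117 FPKM in MacB2-2wk, against 20.6, 11.3 and 5.89 FPKM in MacB2-N (adjusted p = 0.000624). Spp1, the secreted phosphoprotein osteopontin, had 109, 59.4 and 134 FPKM in MacB2-2wk, against 2.495, 2.62 and 11.1 FPKM in MacB2-N (log2 difference 4.17 ± 0.45 SE, adjusted p = 5.48e-05). For each of these genes MacB2-2wk replicate 2 was the lowest tumour library. Gpnmb, a transmembrane glycoprotein of the lysosomal programme, had 55.9, 17.3 and 54.2 FPKM in MacB2-2wk, against 1.09, 1.38 and 2.19 FPKM in MacB2-N (log2 difference 3.94 ± 0.54 SE, adjusted p = 0.000486). The tetraspanin Cd63 had 26.2, 12.6 and 17.8 FPKM in MacB2-2wk, against 3.22, 1.41 and 5.28 FPKM in MacB2-N (log2 difference 2.26 ± 0.37 SE, adjusted p = 0.00221). The fatty acid carrier Fabp5 and the cathepsin Ctsl also rose, though without MacB2-2wk replicate 3 their adjusted p was 0.0554 and 0.0883, and Ctsl was also lost without MacB2-N replicate 1 (adjusted p = 0.0705). Of 30 lysosomal genes 2 rose, both cathepsins named above, with a list median of 0.20. Cd68, a lysosomal glycoprotein common to macrophages, was not called, at 697 ± 72.9 FPKM in MacB2-2wk and 612 ± 146 FPKM in MacB2-N (SD, n = 3 each, adjusted p = 0.787).

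In the complement list, 4 of 20 genes tested rose. C3ar1, the receptor of the fragment C3a, had 28.3, 17.7 and 38.3 FPKM in MacB2-2wk, against 4.41, 5.78 and 3.82 FPKM in MacB2-N (log2 difference 2.31 ± 0.32 SE, adjusted p = 0.000473). C1qb, a chain of the first complement component, had 111, 117 and 166 FPKM in MacB2-2wk, against 53.7, 36.7 and 44.4 FPKM in MacB2-N (log2 difference 1.52 ± 0.33 SE, adjusted p = 0.0202). The C1qb call ended without MacB2-2wk replicate 3 (adjusted p = 0.115), MacB2-N replicate 2 (adjusted p = 0.0791) or MacB2-N replicate 3 (adjusted p = 0.0526). C1qc, called at an adjusted p of 0.0385, lost its call without any 1 of the 6 libraries (adjusted p of 0.0507 to 0.194). Cfd, complement factor D, was listed at 0 in all naive libraries and had 1.23, 1.15 and 2.69 FPKM in MacB2-2wk (adjusted p = 0.0356, and 0.0762 with the replicate block). Without 5 of the 6 libraries, all but MacB2-2wk replicate 2, the Cfd call was lost (adjusted p of 0.0548 to 0.18). Cd55, a regulator of complement on cell surfaces, was called lower under quantile normalization.

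Of 19 genes of the interleukin-1, TNF and interleukin-6 list tested, 2 rose, Il1rn and Il1r1. That is 10.5% of the list, where 1.66% of all genes tested rose. Il1rn, the natural antagonist of the interleukin-1 receptor, had 468, 315 and 614 FPKM in MacB2-2wk, against 74.0, 75.1 and 46.9 FPKM in MacB2-N (log2 difference 2.79 ± 0.31 SE, adjusted p = 5.48e-05). Il1b, the cytokine that this antagonist blocks, averaged 1369 ± 204 FPKM in MacB2-2wk and 1554 ± 673 FPKM in MacB2-N (SD, n = 3 each, adjusted p = 0.998). Il1r1 lost its call without any library but MacB2-N replicate 3 (adjusted p of 0.06 to 0.174). Inhba, the activin A subunit, was among the genes of the TGF-beta list of 18 that rose. Inhba had 32.3, 6.17 and 16.8 FPKM in MacB2-2wk, against 1.45, 0.854 and 0.551 FPKM in MacB2-N (log2 difference 3.08 ± 0.53 SE, adjusted p = 0.00309). Among 19 growth factor and vessel genes, Pdgfa and Vegfb were called, and Vegfa, the main vessel growth factor, averaged 134 FPKM in MacB2-2wk and 189 FPKM in MacB2-N with no call. Pdgfa was kept only without MacB2-N replicate 3 among the leave-one-out fits (adjusted p of 0.0746 to 0.159 without the others). Vegfb lost its call without 4 libraries (adjusted p of 0.0956 without MacB2-2wk replicate 1, 0.192 without MacB2-2wk replicate 3, 0.156 without MacB2-N replicate 2 and 0.0533 without MacB2-N replicate 3).

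Genes of glycolysis and of the response to low oxygen rose in 6 of 28 cases, with a median log2 difference of 0.61 and positive differences in 23. Ldha, lactate dehydrogenase A, had 187, 155 and 227 FPKM in MacB2-2wk, against 75.5, 100.3 and 75.6 FPKM in MacB2-N (log2 difference 1.16 ± 0.19 SE, adjusted p = 0.002). Bnip3, a mitochondrial protein induced by low oxygen, had 81.0, 48.7 and 213 FPKM in MacB2-2wk, against 23.8, 18.3 and 23.4 FPKM in MacB2-N (log2 difference 2.07 ± 0.37 SE, adjusted p = 0.00446). Ero1l, an oxidase of the endoplasmic reticulum, had 8.58, 4.88 and 5.78 FPKM in MacB2-2wk, against 2.00, 2.13 and 1.57 FPKM in MacB2-N (adjusted p = 0.000841). Slc2a1, the glucose transporter GLUT1, was the most abundant of the 6 at 312, 226 and 523 FPKM in MacB2-2wk, against 137, 142 and 68.8 FPKM in MacB2-N (adjusted p = 0.0496), and without 5 of the 6 libraries, all but MacB2-2wk replicate 2, it was not called (adjusted p of 0.0638 to 0.238). Egln3 and Pfkfb3, an oxygen sensor and a regulator of glycolysis, completed the list. Egln3 was kept only without MacB2-2wk replicate 2 (adjusted p of 0.0547 to 0.158 without the others). Pfkfb3 was not called without MacB2-2wk replicates 1 and 2 or MacB2-N replicates 1 and 2 (adjusted p of 0.0516 to 0.0835). Of 29 genes of the respiratory chain none was called by limma, with 5 at an unadjusted p under 0.05. The differences of this list were positive in 26 genes, with a median of 0.35. Over all genes tested, 9064 of 17156 differences were positive, with a median of 0.03.

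Some cell division genes rose. Of 29 mitosis genes tested 8 rose, with a median log2 difference of 0.99, and of 26 DNA replication genes 3 rose (Mcm6, Rfc3 and Rrm2), with a median of 0.74. The replication count was 1 without MacB2-2wk replicate 3 and 5 without MacB2-N replicate 3. Ube2c, which feeds the ubiquitin ligase that ends mitosis, had 25.2, 18.7 and 31.6 FPKM in MacB2-2wk, against 1.80, 2.13 and 0.480 FPKM in MacB2-N (log2 difference 3.45 ± 0.31 SE, adjusted p = 5.25e-06). Top2a, which untangles DNA before division, had 13.03, 14.5 and 13.02 FPKM in MacB2-2wk, against 0.630, 3.31 and 2.64 FPKM in MacB2-N (log2 difference 2.30 ± 0.34 SE, adjusted p = 0.000811). Plk1, the mitotic kinase, had 2.94, 3.51 and 4.52 FPKM in MacB2-2wk, against 0.0855, 0 and 0.0608 FPKM in MacB2-N (adjusted p = 0.000447). Each of these genes was thus present in every tumour library and near 0 to about 3 FPKM in the naive ones. Ccnb2, Ccna2 and Birc5 rose too, with MacB2-2wk replicate 3 the highest tumour library in each. Of the replication genes, Mcm6, a helicase subunit, had 6.21, 7.46 and 9.26 FPKM in MacB2-2wk, against 2.98, 1.44 and 2.66 FPKM in MacB2-N (adjusted p = 0.00595). Rfc3, a clamp loader subunit, was not called without MacB2-2wk replicate 3 (adjusted p = 0.058), and Rrm2 was not called with the replicate block (adjusted p = 0.0675) or without MacB2-2wk replicate 2 (adjusted p = 0.112), MacB2-2wk replicate 3 (adjusted p = 0.105), MacB2-N replicate 1 (adjusted p = 0.0956) or MacB2-N replicate 3 (adjusted p = 0.0968). The histone genes Hist1h2ah, Hist1h3g and Hist1h3c, of a family made in S phase, were among the 15 highest, with 16.2 to 152 FPKM over the tumour libraries and 0.377 to 11.5 FPKM over the naive ones. Reads of near-identical histone genes can be split between copies, so the values of single histone genes are uncertain.

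**Figure D2:**
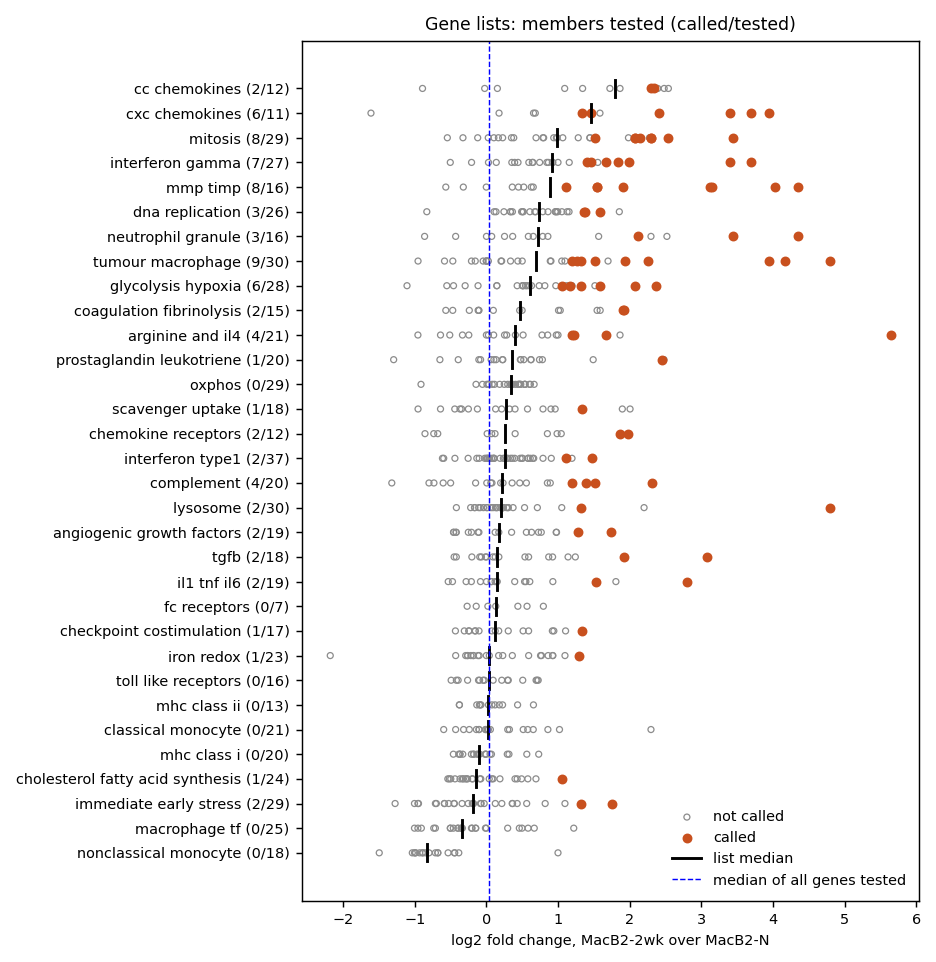
Log2 fold changes of MacB2-2wk over MacB2-N for the tested members of 32 gene lists, with called genes filled, others open, a black bar at each list's median and a dashed line at the median of all genes tested (0.03). Chemokine, mitosis, interferon gamma and protease lists have medians from 0.88 to 1.79, and the nonclassical monocyte list has the lowest median, -0.83, with no filled point.

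Fewer genes fell, and their changes were smaller. The 11 that met the naming rule had log2 differences from -1.68 to -1.03: Tmcc3, BC049352, S1pr5, Pitpnm1, Ccdc88c, Atg2a, Mad1l1, Rasgef1b, Fam78a, Kpna2 and Chkb. None of these 11 was called without each of the 6 libraries in turn, and none without MacB2-2wk replicate 3, where the adjusted p was 0.0666 for Tmcc3 and 0.0892 for Ccdc88c. Tmcc3 had 29.8, 41.8 and 15.0 FPKM in MacB2-2wk, against 119, 108 and 52.0 FPKM in MacB2-N (log2 difference -1.68 ± 0.33 SE, adjusted p = 0.00855), and was also not called without MacB2-N replicate 1 (adjusted p = 0.0518). Ccdc88c, a partner of the Wnt mediator Dishevelled, had 23.6, 24.5 and 15.7 FPKM in MacB2-2wk, against 55.4, 45.5 and 56.9 FPKM in MacB2-N (log2 difference -1.29 ± 0.27 SE, adjusted p = 0.0133), and was also not called without MacB2-N replicate 1 (adjusted p = 0.0518). S1pr5, a sphingosine 1-phosphate receptor that nonclassical monocytes and NK cells of the mouse use to leave the bone marrow, had 9.15, 7.56 and 4.52 FPKM in MacB2-2wk, against 23.96, 12.5 and 20.8 FPKM in MacB2-N (log2 difference -1.31 ± 0.28 SE, adjusted p = 0.0176). Its adjusted p was 0.115 without MacB2-2wk replicate 3, 0.0862 without MacB2-N replicate 1 and 0.0606 without MacB2-N replicate 3. Each of the 3 had lower values in all tumour libraries than in any naive one. With the replicate block, 8 of the 11 were called, and BC049352, Mad1l1 and Kpna2 were not (adjusted p of 0.0603, 0.0502 and 0.0554).

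Nonclassical monocyte genes had mostly lower values in MacB2-2wk, without any call. None of the 18 genes tested passed limma's test, whereas 11 had an unadjusted p under 0.05, 10 of them lower in MacB2-2wk. In 14 of the 18 genes all tumour libraries lay below all naive ones (6.7% of all genes tested did), and the median log2 difference was -0.83. Nr4a1, the nuclear receptor these cells need, had 1323, 772 and 728 FPKM in MacB2-2wk, against 2180.1, 1765 and 1564 FPKM in MacB2-N (log2 difference -1.01 ± 0.41 SE, adjusted p = 0.245). Cx3cr1, the fractalkine receptor, had 65.4, 66.9 and 67.0 FPKM in MacB2-2wk, against 109, 112 and 99.9 FPKM in MacB2-N (log2 difference -0.68 ± 0.21 SE, adjusted p = 0.114). Spn, the sialoglycoprotein CD43, had 66.8, 56.3 and 49.6 FPKM in MacB2-2wk, against 167, 89.9 and 100.5 FPKM in MacB2-N (adjusted p = 0.145). Nr4a1 and Spn were named after their values were seen. Nr4a1 is also an immediate early gene, and in the immediate early and stress list, 2 of 29 genes rose (Ier3 and Egr2) with a median of -0.18. Ier3 was not called without MacB2-2wk replicate 1 (adjusted p = 0.0512), MacB2-2wk replicate 3 (adjusted p = 0.067) or MacB2-N replicate 1 (adjusted p = 0.0751). Egr2 was not called without MacB2-2wk replicate 3 (adjusted p = 0.103), MacB2-N replicate 1 (adjusted p = 0.0851) or MacB2-N replicate 2 (adjusted p = 0.0555). Classical monocyte genes showed no common direction: none of 21 tested was called by limma, 1 had an unadjusted p under 0.05, and the median was 0.01. Ly6c2, whose reads can be shared with the near-identical Ly6c1, had 1525, 1579 and 1820.0 FPKM in MacB2-2wk, against 3034, 2218 and 2256 FPKM in MacB2-N (adjusted p = 0.484).

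Other immune lists had 1 call or none, where 1.88% of all genes tested were called in either direction. None of 13 MHC class II genes, 20 MHC class I and peptide-loading genes, 7 Fc receptor genes, 16 Toll-like receptor and adaptor genes and 25 macrophage transcription factor genes was called by limma, and 0, 1, 1, 3 and 8 of them had an unadjusted p under 0.05. Their list medians were 0.03, -0.10, 0.13, 0.03 and -0.34. A positive difference was seen in 6 of the 25 transcription factor genes, and in 9064 of 17156 over all genes tested. Among 17 checkpoint and costimulation genes tested, Cd276, which encodes B7-H3, rose (6.41 ± 2.85 FPKM in MacB2-2wk and 1.83 ± 0.332 FPKM in MacB2-N, SD, n = 3 each, adjusted p = 0.00846), and its call ended without MacB2-2wk replicate 3 (adjusted p = 0.0665). Cd274, which encodes PD-L1, averaged 15.0 FPKM in MacB2-2wk and 7.68 FPKM in MacB2-N without a call (adjusted p = 0.0749).

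Metabolic, uptake and coagulation lists had 1 or 2 genes that rose each, where 1.66% of all genes tested rose. Abca1, the exporter of cholesterol, was the 1 of 24 sterol and fatty acid genes that rose, at 9.45 ± 1.75 FPKM in MacB2-2wk and 3.98 ± 0.247 FPKM in MacB2-N (SD, n = 3 each, adjusted p = 0.0484), and it was kept only without MacB2-2wk replicate 2 (adjusted p of 0.0968 to 0.18 without the others). Slc7a11, the cystine importer, was the 1 of 23 iron and redox genes that rose (adjusted p = 0.0225), and was not called without MacB2-2wk replicate 1 (adjusted p = 0.0927), MacB2-2wk replicate 3 (adjusted p = 0.0538), MacB2-N replicate 1 (adjusted p = 0.0559) or MacB2-N replicate 2 (adjusted p = 0.0905). Ltc4s, the leukotriene C4 synthase, was the 1 of 20 prostaglandin and leukotriene genes that rose, with 18.9, 15.3 and 11.5 FPKM in MacB2-2wk, against 5.04, 3.12 and 0 FPKM in MacB2-N (adjusted p = 0.026). With the replicate block its adjusted p was 0.0723, and it was not called without MacB2-2wk replicate 1 (0.0835), MacB2-2wk replicate 2 (0.0652), MacB2-2wk replicate 3 (0.067) or MacB2-N replicate 3 (0.106). Of 18 scavenger receptor and uptake genes, Cxcl16, given above and also an uptake receptor, was the 1 that rose, and of 15 coagulation and fibrinolysis genes, Plau, given above, was among those that rose.

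Markers of other cell types moved with some of these results. In a list of 16 fibroblast and mesenchymal genes, summed levels were 193, 199 and 231 FPKM in MacB2-2wk, against 64.0, 45.3 and 97.0 FPKM in MacB2-N. Col3a1 and Lum, which encode matrix proteins of fibroblasts, were the 2 of 16 that rose, and the median log2 difference was 1.16. Col3a1 had 53.9, 41.5 and 59.9 FPKM in MacB2-2wk, against 4.56, 2.47 and 9.84 FPKM in MacB2-N (adjusted p = 0.0131). The Col3a1 call ended without MacB2-2wk replicate 3 (adjusted p = 0.0672) or MacB2-N replicate 2 (adjusted p = 0.0634), and Lum, at an adjusted p of 0.018, was not called without MacB2-2wk replicate 1 (0.0512), MacB2-2wk replicate 3 (0.107) or MacB2-N replicate 1 (0.075). Several of the strongest rises were in genes better known from mesenchymal, epithelial or tumour cells than from monocytes. Ptn, the growth factor pleiotrophin, had 11.8, 12.5 and 14.9 FPKM in MacB2-2wk, against 0, 0 and 0.612 FPKM in MacB2-N (log2 difference 3.58 ± 0.44 SE, adjusted p = 0.000186). Sox9, a transcription factor of cartilage and epithelium, had 12.3, 12.5 and 15.4 FPKM in MacB2-2wk, against 0, 0.0410 and 0.247 FPKM in MacB2-N (adjusted p = 0.0181), and its adjusted p was 0.0793, 0.0605 and 0.0543 without MacB2-2wk replicate 3, MacB2-N replicate 1 and MacB2-N replicate 2. Hmga2, a chromatin protein of embryonic and tumour cells, Prrx1, a mesenchymal transcription factor, and Flnc, a muscle filamin, were named after their values were seen. Hmga2 had 8.04, 9.51 and 13.6 FPKM in MacB2-2wk, against 0, 0 and 0.311 FPKM in MacB2-N (log2 difference 3.35 ± 0.52 SE, adjusted p = 0.00122). Prrx1 had 13.4, 11.6 and 18.97 FPKM in MacB2-2wk, against 0.634, 0.509 and 0.825 FPKM in MacB2-N (adjusted p = 0.00972, and 0.0632 without MacB2-2wk replicate 3). MacA libraries, of cells sorted through another gate, held these transcripts as well: Prrx1 averaged 14.8 FPKM in MacA-2wk and 0.790 FPKM in MacA-N, and Col3a1 averaged 40.3 FPKM in MacA-2wk and 1.98 FPKM in MacA-N. The part of RNA from other cells in these results was not tested.

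The lists of blood and vessel cells moved in other ways. For 18 endothelial genes, none of which was called by limma (1 at an unadjusted p under 0.05), summed levels were 413, 1178 and 581 FPKM in MacB2-2wk, against 287, 278 and 972 FPKM in MacB2-N, so that 1 library in each group stood apart. Without those libraries (MacB2-2wk replicate 2 and MacB2-N replicate 3), 169 of the 284 genes that rose and 14 of the 39 that fell were called. In 17 epithelial genes, none called by limma (2 at an unadjusted p under 0.05), sums were 606, 2026 and 2694 FPKM in MacB2-2wk, against 10649, 8259 and 3597 FPKM in MacB2-N, most of it Scgb1a1, a secretory protein of airway cells, whose level was 285, 1469 and 2374 FPKM in MacB2-2wk, against 10211, 7856 and 2834 FPKM in MacB2-N (adjusted p = 0.187). In 14 neutrophil genes, sums were 937, 773 and 643 FPKM in MacB2-2wk, against 354, 430.4 and 352 FPKM in MacB2-N. These sums include Mmp9 at the levels given above, and without Mmp9 the sums of the 2 groups overlap. Mmp9 was the 1 of 12 tested that rose, and the list median was 0.56. Differences were positive in 10 of the 12, and in 9064 of 17156 over all genes tested. Ly6g, whose product the gate removes, was listed at 0 in all 6 libraries, and Retnlg and Camp were at 0 in all but MacB2-2wk replicate 2, which had 0.689 FPKM of Retnlg and 4.12 FPKM of Camp. The part of neutrophil RNA in the Mmp9 level was not tested. Of 16 neutrophil granule genes tested, Lcn2 and Wfdc21 rose besides Mmp9. Lcn2, the iron-carrier-binding lipocalin, had 32.8, 60.0 and 38.6 FPKM in MacB2-2wk, against 7.97, 7.53 and 12.02 FPKM in MacB2-N (adjusted p = 0.017), and was not called without MacB2-2wk replicate 2 (adjusted p = 0.0692), MacB2-2wk replicate 3 (adjusted p = 0.0601), MacB2-N replicate 1 (adjusted p = 0.062) or MacB2-N replicate 2 (adjusted p = 0.0616). Wfdc21 was kept only without MacB2-N replicate 1 (adjusted p of 0.0507 to 0.105 without the others), and its adjusted p was 0.0714 with the replicate block. Csf3r, the G-CSF receptor, was called lower without MacB2-2wk replicate 2. In 19 T cell genes, sums were 42.9 to 49.4 FPKM in MacB2-2wk and 14.8 to 37.2 FPKM in MacB2-N, and Il7r was the 1 of 18 tested that rose. In 13 B cell genes the sums were 221 to 286 FPKM in MacB2-2wk and 298 to 618 FPKM in MacB2-N, with no call by limma among 10 tested and 2 at an unadjusted p under 0.05. Of the NK cell, dendritic cell and alveolar macrophage lists, 1 gene each rose, namely Nkg7 of 8 tested, Fscn1 of 11 and Cd9 of 19. None of 4 eosinophil, mast cell and basophil genes and none of 10 erythroid and platelet genes tested was called by limma, and 1 and 2 of them had an unadjusted p under 0.05.

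**Figure D3:**
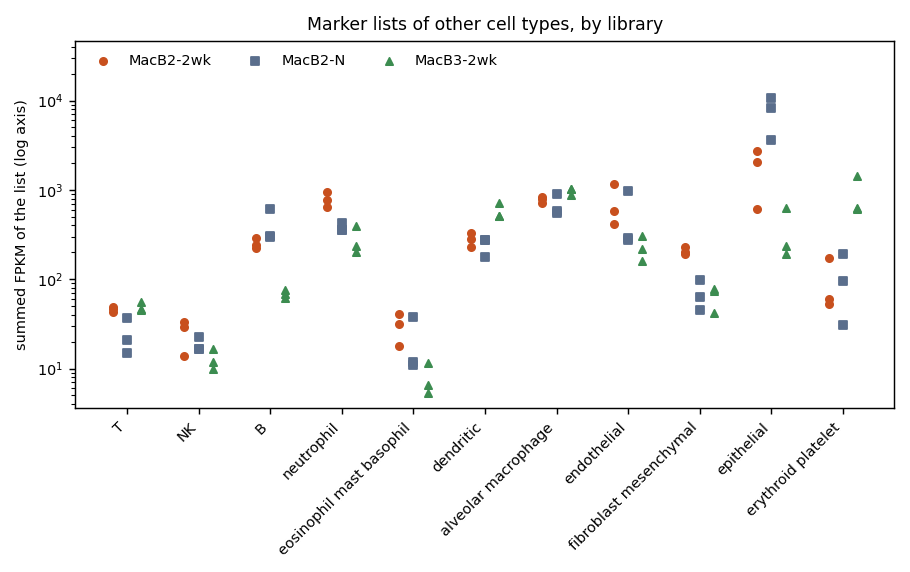
Summed FPKM on a log axis of marker lists for 11 other cell types in each library of MacB2-2wk (circles), MacB2-N (squares) and MacB3-2wk (triangles). The fibroblast and mesenchymal sums of MacB2-2wk, 193 to 231 FPKM, lie above those of MacB2-N, 45.3 to 97.0 FPKM, and the epithelial sums lie below them.

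At 3 weeks the MacB2 profile differed further from that at 2 weeks. Between MacB2-3wk and MacB2-2wk, 525 genes were higher and 219 lower at 3 weeks (3.06% and 1.28% of genes tested, 4.34% in either direction), and with protein-coding sums rescaled the split was 594 higher and 107 lower. Without MacB2-3wk replicate 1 the number of calls was 459. The comparison shares the MacB2-2wk libraries with the one above, so each is given by its own values. Of 16 matrix protease genes, 3 were higher again at 3 weeks, namely Mmp12, Mmp14 and Plau. Mmp12 averaged 191 FPKM in MacB2-3wk and 37.5 FPKM in MacB2-2wk (log2 difference 2.55 ± 0.52 SE, adjusted p = 0.00665). Mmp14 averaged 129 FPKM in MacB2-3wk and 41.6 FPKM in MacB2-2wk (log2 difference 1.64 ± 0.33 SE, adjusted p = 0.00619). Of the cell division lists, 14 of 29 mitosis genes and 12 of 26 replication genes were higher at 3 weeks, as with Top2a at 60.0 FPKM in MacB2-3wk and 13.5 FPKM in MacB2-2wk (adjusted p = 0.00215). The interferon gamma list went the other way in part: 5 of 27 genes were lower at 3 weeks and 1, Nos2, was higher, although Nos2 was not called without MacB2-2wk replicate 2 (adjusted p = 0.0823) or MacB2-3wk replicate 1 (adjusted p = 0.0954). Cxcl9 had 32.3, 15.3 and 19.4 FPKM in MacB2-3wk, against 56.7, 63.5 and 56.8 FPKM in MacB2-2wk (log2 difference -1.43 ± 0.31 SE, adjusted p = 0.00987). Gbp5 was also lower, at 9.34 FPKM in MacB2-3wk and 21.9 FPKM in MacB2-2wk (adjusted p = 0.00881). In a fit of only the 2 groups compared, Mmp12, Mmp14, Cxcl9 and Gbp5 were not called (adjusted p of 0.0876, 0.0597, 0.0549 and 0.0533). The Gbp5 call also ended with protein-coding sums rescaled (adjusted p = 0.0505) and with a pseudocount of 5 FPKM (log2 difference -0.92). Cxcl10 differed by less than the test could call, with 755, 666 and 679.6 FPKM in MacB2-3wk, against 953, 891 and 1471 FPKM in MacB2-2wk (adjusted p = 0.28). Arg1, Mmp9, Ctsk and Il1rn were likewise not called between the 2 tumour ages (adjusted p of 0.0566, 0.894, 0.907 and 0.945). Of 18 nonclassical monocyte genes 5 were lower at 3 weeks, among them Ace, named after its values were seen, at 44.8 FPKM in MacB2-3wk and 152 FPKM in MacB2-2wk (adjusted p = 0.00576). Of 18 endothelial genes 7 were also lower at 3 weeks (median log2 difference -1.59), among them Cdh5, which averaged 16.5 FPKM in MacB2-3wk and had 46.7, 153 and 46.9 FPKM in MacB2-2wk, where replicate 2 was the library richest in endothelial RNA. The part of these cells in the lower genes was not tested. Of the 16 fibroblast and mesenchymal genes 4 were higher at 3 weeks (Col3a1, Col5a1, Dcn and Fbn1). Col3a1 lost that call when any 1 library of the 2 groups was left out (adjusted p of 0.0614 to 0.13). Dcn lost it without MacB2-2wk replicate 1 (0.0508), MacB2-2wk replicate 2 (0.0817) or MacB2-3wk replicate 2 (0.0701). Ptn had 123.3, 161 and 168 FPKM in MacB2-3wk, against 11.8, 12.5 and 14.9 FPKM in MacB2-2wk (adjusted p = 0.000501).

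The MacB3 cells of 2-week tumour lungs, sorted for more CD64 and for CD11c, had higher levels of many tumour macrophage genes than MacB2-2wk and lower levels of many monocyte genes. Between MacB3-2wk and MacB2-2wk, 541 genes were higher and 722 lower in MacB3-2wk (3.15% and 4.21% of genes tested, 7.36% in either direction), and quantile normalization gave 676 higher and 527 lower. Fcgr1 and Itgax belong to the gate and are no result here. Tumour macrophage genes stood higher in MacB3-2wk in 21 of 30 cases and lower in none. Arg1 had 538, 678 and 495 FPKM in MacB3-2wk, against 93.2, 46.4 and 140.4 FPKM in MacB2-2wk (log2 difference 2.72 ± 0.44 SE, adjusted p = 0.000443). Gpnmb had 333, 368 and 371 FPKM in MacB3-2wk, against 55.9, 17.3 and 54.2 FPKM in MacB2-2wk (log2 difference 3.21 ± 0.54 SE, adjusted p = 0.000668). C1qb had 2603, 2211 and 2719 FPKM in MacB3-2wk, against 111, 117 and 166 FPKM in MacB2-2wk (log2 difference 4.27 ± 0.33 SE, adjusted p = 9.69e-08). For these 3 genes the 2-week MacB2 libraries lay between the naive MacB2 libraries and the MacB3 libraries. Mmp12, Mmp14 and Cxcl9 were higher in MacB3-2wk too, at 515, 222 and 233 FPKM in MacB3-2wk and 37.5, 41.6 and 59.0 FPKM in MacB2-2wk (adjusted p of 5.09e-05, 8.7e-05 and 0.000387). Cxcl10 was not called, at 1338 FPKM in MacB3-2wk and 1105 FPKM in MacB2-2wk (adjusted p = 0.619). Lcn2 was lower in MacB3-2wk, at 2.93, 3.68 and 4.52 FPKM, against 32.8, 60.0 and 38.6 FPKM in MacB2-2wk (log2 difference -3.22 ± 0.45 SE, adjusted p = 0.000126). Mmp9 had 52.1, 273 and 113 FPKM in MacB3-2wk, against 629.9, 263 and 415 FPKM in MacB2-2wk, without a call (adjusted p = 0.139). Classical monocyte genes were lower in MacB3-2wk in 11 of 21 cases. Of the 16 fibroblast and mesenchymal genes 4 were lower in MacB3-2wk (Col1a1, Pdgfra, Fbn1 and Myl9), with a median log2 difference of -1.40. Among the leave-one-out fits Col1a1 was kept only without MacB3-2wk replicate 1 (adjusted p of 0.0568 to 0.149 without the others). Ptn and Prrx1 were not called, with Ptn at 6.28 FPKM in MacB3-2wk and 13.1 FPKM in MacB2-2wk (adjusted p = 0.152) and Prrx1 at 4.22 FPKM in MacB3-2wk and 14.6 FPKM in MacB2-2wk (adjusted p = 0.131). The summed fibroblast list was 41.3 to 76.7 FPKM in MacB3-2wk and 193 to 231 FPKM in MacB2-2wk. Of 18 endothelial genes 8 were lower in MacB3-2wk (median log2 difference -1.58), and of 17 epithelial genes 4 were (median -1.48). The part of these other cells in the lower genes was not tested.

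**Figure D4:**
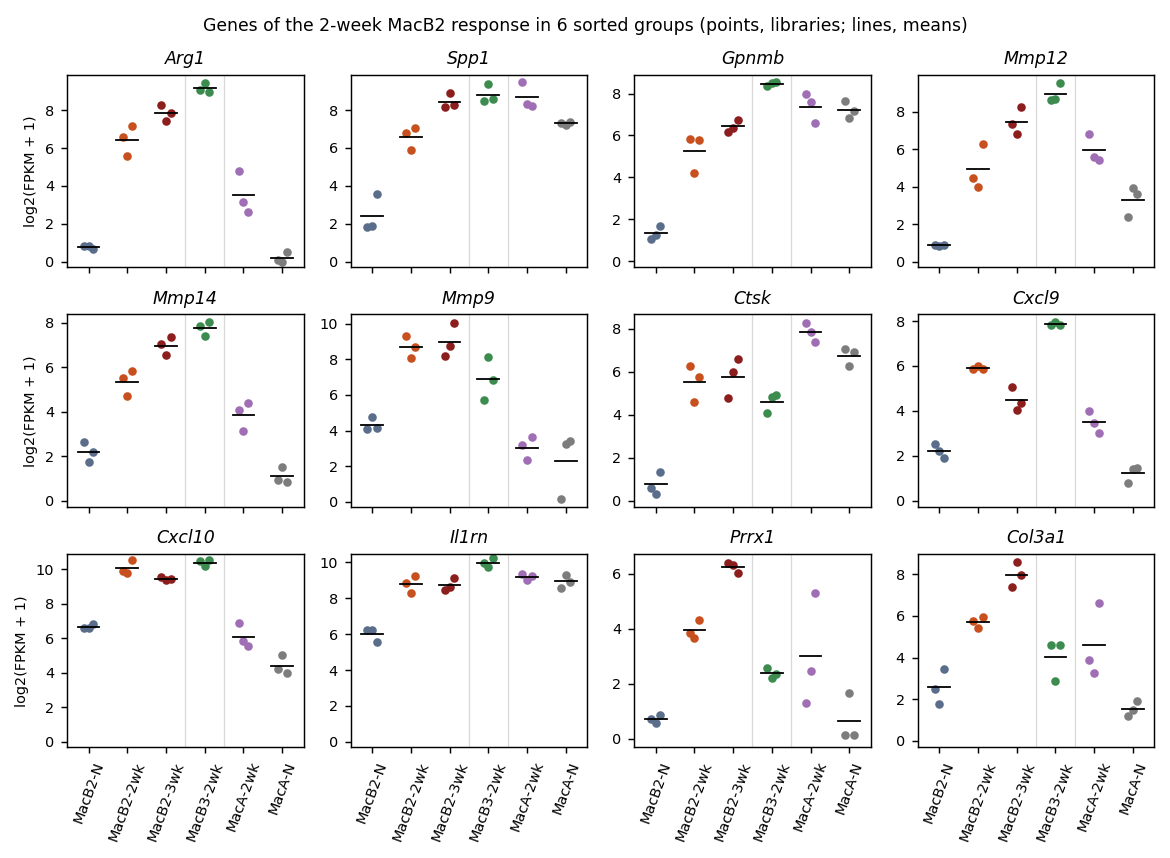
Levels on a log2(FPKM + 1) axis of 12 genes in MacB2-N, MacB2-2wk, MacB2-3wk, MacB3-2wk, MacA-2wk and MacA-N, with 1 point per library and a line at each group's mean. Arg1, Spp1, Gpnmb, Mmp12, Mmp14 and Cxcl9 are highest or among the highest in MacB3-2wk, whereas Prrx1 and Col3a1 are highest in MacB2-3wk and Mmp9 is high in MacB2-2wk and MacB2-3wk.

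Whether MacB2 cells responded differently from MacA cells to a tumour of the same age was tested as the difference of the 2 differences. In that test 23 genes were higher and 15 lower in the MacB2 response (0.134% and 0.0874% of genes tested, 0.221% in either direction), and 24 genes were called with the replicate block. Ube2c had a response difference of 3.02 ± 0.44 SE (adjusted p = 0.00864): in MacA it had 53.7, 33.1 and 50.1 FPKM at 2 weeks, against 42.2, 31.3 and 27.05 FPKM in MacA-N, values above those of MacB2 in both groups. C1qa and C1qc went the other way, with response differences of -3.38 ± 0.48 and -3.29 ± 0.42 SE (adjusted p = 0.00864 and 0.00368). C1qa had 58.4, 13.7 and 46.8 FPKM in MacA-2wk, against 0.360, 0.915 and 1.23 FPKM in MacA-N, and 63.9, 65.1 and 85.4 FPKM in MacB2-2wk, against 38.0, 34.3 and 41.3 FPKM in MacB2-N. Oas3, an interferon-induced enzyme that senses double-stranded RNA, had a response difference of -2.60 ± 0.41 SE (adjusted p = 0.00864). It had 47.2, 39.8 and 55.1 FPKM in MacB2-2wk, against 66.8, 46.0 and 41.9 FPKM in MacB2-N, and 9.07, 6.88 and 5.72 FPKM in MacA-2wk, against 0.398, 0.478 and 0.430 FPKM in MacA-N. Of 37 type I interferon genes, 4 were lower in the MacB2 response and none higher. Arg1, Cxcl9, Cxcl10, Mmp9 and Mmp12 were not called in this test, at adjusted p of 0.145, 0.241, 0.152, 0.204 and 0.559. MacA libraries were all sequenced in lane 1, away from the MacB libraries, but each response is a difference within its own population. The replicate numbers of MacA therefore mark no lane, although the replicate block of this test covered them too.

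**Figure D5:**
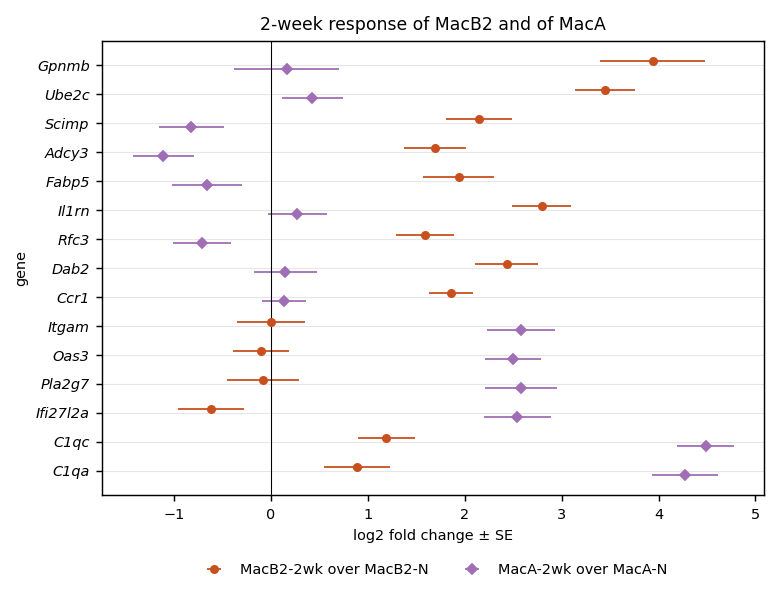
Log2 fold changes with SE bars of 15 named genes whose 2-week response differed between the populations, for MacB2-2wk over MacB2-N (circles) and MacA-2wk over MacA-N (diamonds). Scimp, Adcy3, Fabp5 and Rfc3 have circles above 0 and diamonds below 0, and C1qa, C1qc, Oas3 and Ifi27l2a have diamonds far to the right of their circles.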

How the data were processed

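RNA of sorted lung cells from 24 libraries in 8 groups of 3 was analysed, of which the comparison of MacB2-2wk with MacB2-N uses 6. The deposited table holds 1 FPKM value per gene and library (fragments mapped to the gene, scaled by gene length and by all mapped fragments), which the authors made with FastQC, TopHat2 version 2 and Cufflinks 2.0.2 on mm10, per the submitters' processing notes. Libraries were made with the NuGen Ovation FFPE kit, with oligos against mouse rRNA, per the labels' protocols. The table's header names no unit, and its values are neither whole nor of equal sum, so the depth of each library is unknown and the number of libraries limits the precision. Because FPKM divides by all mapped fragments, a few very abundant small RNA genes can lower every other gene of a library, and microRNA gene rows held 43.7 to 75.1% of the FPKM sums. That is not their share of the fragments, because FPKM also divides by length and these genes are short. Such a lowering was not measured.

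A gene was kept where the mean of any group reached 1 FPKM (17156 of 37979, of which 14133 were at 0 in all libraries). Differences were taken on log2(FPKM + 1) and tested two-sided with limma 3.58.1 in R 4.3.3, with 1 mean per group over all 24 libraries, a mean-variance trend and 16 residual degrees of freedom. P-values were adjusted by the Benjamini-Hochberg method over all genes tested. A gene was called, and is said to have risen or fallen, at an adjusted p under 0.05 and a fold of at least 2. Errors of log2 differences are standard errors of the model. A simulation of 16746 genes used the group means and pooled spreads of all 24 libraries. In it MacB2-2wk was set equal to MacB2-N except in the changed genes. These were drawn from genes with a mean log2(FPKM + 1) in MacB2-N above that of 5 FPKM. The recovery given next therefore does not cover genes lower than that in MacB2-N, such as Arg1. At an adjusted p under 0.05 without a fold limit, 44 of 100 genes changed 2-fold and 86 of 100 changed 4-fold were recovered. Of the unchanged genes 11 passed that threshold, 9 of them also with a fold of at least 2. A fit of the 6 libraries alone was not simulated.

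The genes named were the 15 highest and up to 15 lowest called protein-coding genes with at least 10 FPKM in the higher group and groups that do not overlap (155 genes met this, 11 of them lower), up to 6 called members of each gene list, the sort markers, and for the comparison with MacA the 5 highest and 5 lowest of 33. Genes said to be named after their values were seen fall outside this rule, as do Il1b, Vegfa, Cd274 and the members of marker lists. Some genes that met the rule are not reported here, but stay in the counts. The 32 gene lists and 11 marker lists of other cells hold 857 entries, of which 852 were matched. The members and lists were chosen with earlier results of these data known, and a list is described by its counts and median without a test. Positions and promoter letters are from GENCODE M21 and RefSeq (GRCm38), matched by Ensembl identifier for 32936 genes or by symbol.

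The replicate numbers of the MacB libraries mark a shared sequencing lane, per the labels, so a fit with the number as a block is given where it changes a call. For the comparison with MacA the block covered all 24 libraries, although the number marks no lane in MacA. Same-numbered MacB2 libraries deviated from their group means with correlations of 0.03, -0.03 and -0.06 across genes. Alternatives were other pseudocounts and filters, quantile normalization, rescaling to protein-coding sums, no trend, fits of fewer groups, the block, and leaving out each library. A fit without the 2 MacB2 libraries richest in endothelial RNA was chosen after seeing the data.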

Additional observations from a re-analysis of the deposited data

Results flagged for a closer look

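For 15 named genes the 2-week tumour response of MacB2 (MacB2-2wk minus MacB2-N) differed from that of MacA (MacA-2wk minus MacA-N) by limma's test of the difference between the responses. The values below are MacB2 response minus MacA response on log2(FPKM + 1). It was higher in MacB2 for Gpnmb (3.78), Ube2c (3.02), Scimp (2.97), Adcy3 (2.80), Fabp5 (2.59), Il1rn (2.52), Rfc3 (2.30), Dab2 (2.28) and Ccr1 (1.72). It was lower in MacB2 for C1qa (-3.38), C1qc (-3.29), Ifi27l2a (-3.16), Pla2g7 (-2.67), Oas3 (-2.60) and Itgam (-2.58). Scimp had 20.5, 19.4 and 20.0 FPKM in MacA-2wk, against 26.5, 56.5 and 31.01 FPKM in MacA-N. Ifi27l2a, an interferon-induced gene, had 69.5, 30.1 and 65.3 FPKM in MacA-2wk, against 4.72, 10.98 and 9.69 FPKM in MacA-N. With the replicate block the adjusted p of Gpnmb was 0.0686, that of Itgam 0.0643, and that of Pla2g7 and of Dab2 0.0566. In MacA the block's replicate numbers mark no lane. Of 22 alternatives, 18 ended the call of Gpnmb, 16 that of Dab2, 14 each those of Fabp5, Itgam and Pla2g7, 9 each those of Ccr1 and Rfc3, 3 that of Il1rn, 2 each those of C1qa, C1qc and Scimp, and 1 each those of Adcy3, Ifi27l2a, Oas3 and Ube2c. Dab2 was named after its values were seen, and Itgam belongs to the sort gate of MacB2.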

How the results depend on the processing

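No named gene changed direction past the threshold under any alternative run. The 323 calls between MacB2-2wk and MacB2-N became 148 with a pseudocount of 5 FPKM and 36 with only the 6 libraries compared, a fit with fewer samples and fewer genes tested. Leaving out 1 library gave 141 (without MacB2-2wk replicate 3) to 295 calls, and the replicate block gave 357. Of the 284 genes that rose 236 were called with the block, and of the 39 that fell 21 were. The 744 calls between MacB2-3wk and MacB2-2wk became 493 and 417 with pseudocounts of 0.1 and 5 FPKM and 312 with only the groups compared, and leaving out 1 library gave 459 (without MacB2-3wk replicate 1) to 749. The 1263 calls between MacB3-2wk and MacB2-2wk became 713 with a pseudocount of 5 FPKM. The 38 calls between the MacB2 and MacA responses became 89 and 19 with pseudocounts of 0.1 and 5 FPKM, 23 without a filter, 5 with only the 4 groups compared and 24 with the replicate block. Leaving out 1 library gave 17 (without MacB2-2wk replicate 3) to 57 of them, with 19 to 25 without MacA-N replicates 1, 2 or 3, MacB2-N replicates 1 or 2, or MacB2-2wk replicate 1. The cause was not tested for these changes. Without the libraries richest in endothelial RNA, an alternative chosen after seeing the data, 247 genes were called between MacB2-2wk and MacB2-N. With depth unknown, genes near 1 FPKM have the least reliable differences.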
